A study of Rattus norvegicus with 12 samples.

Results

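Complement and coagulation genes of rat liver were followed over 3 diets. The set was a list of 48 gene symbols covering the complement cascade, the clotting factors, fibrinogen and the inhibitors of both systems. A listed gene counted as measured when a probe set carried its symbol and no other, with the brightest one to be used where a gene had several. This gave 39 genes with 1 probe set each, out of 13215 genes named in this way and 19418 probe sets in all. C2, C7, Cfd, Cfi, F5, F9, F11 and Protz had no such probe set and were not analysed here, nor was Kng1, which appeared only on probe sets shared with other kininogen genes.

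The livers came from 12 Sprague Dawley rats, 4 for each diet, labelled as separate biological replicates and hybridised to 1 whole-transcript array each. Control rats ate a control diet. The naproxen rats ate 400 mg per kg of diet of naproxen, a painkiller of the nonsteroidal class and a blocker of the cyclooxygenases. The NO-naproxen rats ate 550 mg per kg of diet of NO-naproxen, which is naproxen joined to a chemical group that releases nitric oxide. The doses of the drugs differ by weight, and molar doses were not compared. All diets were given for 7 days, and all rats were housed singly with free food and water. Levels are given as log2(intensity + 16) of the deposited intensities, and a difference of 1 on this scale is close to a doubling for bright probe sets. Array medians lay between 89.8 and 118 intensity units, and precision is set by having 4 arrays a diet. The arrays differed in spread. Their interquartile range in log2 units was 2.10 ± 0.19 in controls, 2.34 ± 0.16 in naproxen rats and 2.36 ± 0.23 in NO-naproxen rats (SD, n = 4). These differences from control gave 2-sided exact permutation p = 0.114 and p = 0.143 (both 0.214 after adjustment over 3 tests). Markers of hepatocytes were bright on all arrays. The 7 measured of 10 listed summed to 61355 to 68649 intensity units in controls, 61696 to 65920 with naproxen and 61573 to 71437 with NO-naproxen.

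Complement is a chain of plasma proteases that is started by antibody through C1, by microbial sugars through the mannose-binding lectins, or by slow turnover of C3, and it ends in a pore built from C5 to C9. Coagulation is a parallel chain in which tissue factor or contact activation leads to thrombin, which cuts fibrinogen to fibrin, while plasmin dissolves the clot. Hepatocytes secrete most of these proteins. The C1q chains come largely from macrophages, in liver the Kupffer cells, and factor VIII from endothelial cells. Fibrinogen is an acute phase protein whose transcription is raised by interleukin 6. In whole liver RNA, fewer cells of a type and less RNA per cell cannot be told apart.

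Promoter sequences are shown for the 3 fibrinogen chains and both chains of C4b-binding protein, as subunits whose levels are compared from rat to rat below. Each line gives the 250 bases before the annotated start, 5′ to 3′ on the gene's strand, from RefSeq's table for build GRCr8. Capitals mark CTGGGA, the core of the interleukin 6 response element described in rat fibrinogen genes, and GTTAAT, a core of sites for the hepatocyte factor HNF1, on either strand (TCCCAG and ATTAAC on the opposite one). The motifs do not overlap each other. Fga (chr2:170671919-170672168, + strand) had 2 start sites in the table, and the first is shown. Fgb lies at chr2:170700876-170701125 (- strand), Fgg at chr2:170652833-170653082 (+ strand), C4bpa at chr13:44663472-44663721 (- strand) and C4bpb at chr13:44683782-44684031 (- strand).
Fga: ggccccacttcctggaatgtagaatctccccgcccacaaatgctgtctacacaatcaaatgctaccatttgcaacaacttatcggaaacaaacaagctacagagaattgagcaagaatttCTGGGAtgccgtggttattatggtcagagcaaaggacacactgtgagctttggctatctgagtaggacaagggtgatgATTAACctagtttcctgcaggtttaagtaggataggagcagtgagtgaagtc
Fgb: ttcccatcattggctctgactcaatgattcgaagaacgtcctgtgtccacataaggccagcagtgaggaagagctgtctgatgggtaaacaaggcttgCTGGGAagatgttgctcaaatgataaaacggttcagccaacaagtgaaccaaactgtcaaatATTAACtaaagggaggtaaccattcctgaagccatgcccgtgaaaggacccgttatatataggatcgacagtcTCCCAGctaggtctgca
Fgg: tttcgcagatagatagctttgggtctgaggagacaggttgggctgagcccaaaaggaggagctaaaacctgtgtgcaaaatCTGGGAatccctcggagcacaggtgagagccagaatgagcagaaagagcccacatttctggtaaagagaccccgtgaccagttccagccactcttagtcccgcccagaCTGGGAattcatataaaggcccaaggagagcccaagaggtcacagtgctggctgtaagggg
C4bpa: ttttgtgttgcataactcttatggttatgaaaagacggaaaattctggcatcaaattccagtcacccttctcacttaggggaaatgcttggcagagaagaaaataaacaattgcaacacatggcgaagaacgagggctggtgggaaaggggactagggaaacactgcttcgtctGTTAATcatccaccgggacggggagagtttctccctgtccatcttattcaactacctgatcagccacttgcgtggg
C4bpb: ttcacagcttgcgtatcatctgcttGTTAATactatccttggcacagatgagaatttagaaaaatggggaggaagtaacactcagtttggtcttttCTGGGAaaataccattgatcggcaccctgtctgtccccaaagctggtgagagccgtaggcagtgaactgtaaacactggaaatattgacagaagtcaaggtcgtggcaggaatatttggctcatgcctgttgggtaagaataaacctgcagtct
CTGGGA stood once in the Fga window, beginning 130 bases before the start, and 2 times each in the windows of Fgb, at 152 and 17 bases, and Fgg, at 169 and 61 bases. It stood once in the C4bpb window. GTTAAT stood once in each window but that of Fgg. RefSeq's table held a window for 28 of the 39 genes. Of these 13 held CTGGGA (46.4%, against 25.7% of all 33469 windows) and 10 held GTTAAT (35.7%, against 6.45%). Each member gene entered these shares with its first window, whereas all windows include further start sites of some genes. The shares are thus not in like units, and their difference was not tested. A match is a run of letters and was not tested as a binding site.

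The first comparison the series design names, naproxen against control, found no complement or coagulation gene past the adjusted threshold in limma (Benjamini-Hochberg adjusted p under 0.05 over all probe sets), where 0.0% of all probe sets passed. No member reached an unadjusted p under 0.05 either, or met the criterion in the series design (that p and at least 1.5-fold), against 12.7% and 5.85% of all probe sets. The first of these shares was 11.4% among the 12048 probe sets brighter than the range of olfactory receptors, which served as a stand-in for background. The log2 fold changes ran from -0.25 for the terminal component C6 to 0.38 for factor VIII, F8, with 17 of 39 above 0 (45.9% of all probe sets) and a median of -0.014, against -0.034 over all probe sets. After median centring 33 of 39 were above 0, since that scaling moved the median of all probe sets from -0.034 to 0.081. The count was 28 of 39 when naproxen replicate 3 was left out. In no gene did the 4 naproxen rats lie apart from the 4 controls, as they did in 4.5% of all probe sets. The 95% interval lay inside a 1.5-fold change in either direction for 33 of the 39 genes, for 36.5% of all probe sets and for 40.0% of those above the olfactory receptor range. The exceptions were C1qb, C1qc, C6, F8, Pros1 and Serpinc1, and the widest bounds were -0.73 for Serpinc1 and 0.90 for F8. The count of 33 was 19 without control replicates 3 and 4, the 2 arrays of narrowest spread. Without control replicate 2 the inhibitor of thrombin Serpinc1 reached an unadjusted p under 0.05, with a log2 fold change of -0.47, where 24.4% of all probe sets did.

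NO-naproxen against control, the other comparison named, used the same control rats and also gave no call. No member passed the adjusted threshold, which 0.0% of all probe sets passed, and none had an unadjusted p under 0.05, against 10.4% of all probe sets and 11.4% of those above the olfactory receptor range. None met the criterion with 1.5-fold, against 3.8% of probe sets. The log2 fold changes ran from -0.15 for prothrombin, F2, to 0.50 for F8, with 22 of 39 above 0 (31 after median centring, and 50.1% of all probe sets before it) and a median of 0.049, against 0.0004 over all probe sets. No gene had separate groups, against 3.35% of probe sets. The 95% interval lay inside 1.5-fold for 32 of 39 genes, against 34.9% of probe sets and 35.6% of those above the olfactory receptor range, and the exceptions were the 3 C1q chains, F7, Klkb1, F8 and F2. Leaving out single arrays gave up to 2 members at an unadjusted p under 0.05. These were C1qc without NO-naproxen replicate 1, F8 without NO-naproxen replicate 3, Klkb1 and F8 without NO-naproxen replicate 4, C1qc and F8 without control replicate 1, and F8 without control replicate 2, with log2 fold changes between 0.45 and 0.64. The share of all probe sets under that p was 5.07%, 21.8%, 10.5%, 8.94% and 23.3% in these fits. None passed the adjusted threshold.

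NO-naproxen was also set directly against naproxen, at doses that differ by weight. No member had an adjusted or an unadjusted p under 0.05 in limma (0.0% and 1.92% of all probe sets). The second share was 1.1% among probe sets above the olfactory receptor range. The criterion with 1.5-fold was met by no member and by 0.572% of probe sets. The log2 fold changes lay between -0.18 for tissue factor, F3, and 0.27 for plasma kallikrein, Klkb1. Of the 39, 27 were above 0 (18 after quantile normalization, 19 after median centring and 15 without naproxen replicate 3), as were 64.1% of all probe sets, with a median of 0.028, against 0.062 over all probe sets. The 95% interval lay inside 1.5-fold for 35 genes, for 50.1% of probe sets and for 55.5% of those above the olfactory receptor range, and no gene had separate groups (1.17% of probe sets). One test over all 3 diets at once, the moderated F-test of limma, gave no member a p under 0.05, against 7.91% of probe sets. Its smallest p among the members was 0.134, for F8 (adjusted p = 0.587). The members had a median SD between rats of one diet of 0.21 log2 units. This median was 0.30 over all probe sets and 0.28 over those above the olfactory receptor range. The SD of single members ran from 0.094 to 0.38, so some lay above these medians. Most members were brighter than the array medians given above. No probe sets matched for brightness were compared, either for this SD or for the intervals inside 1.5-fold.

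**Figure D1:**
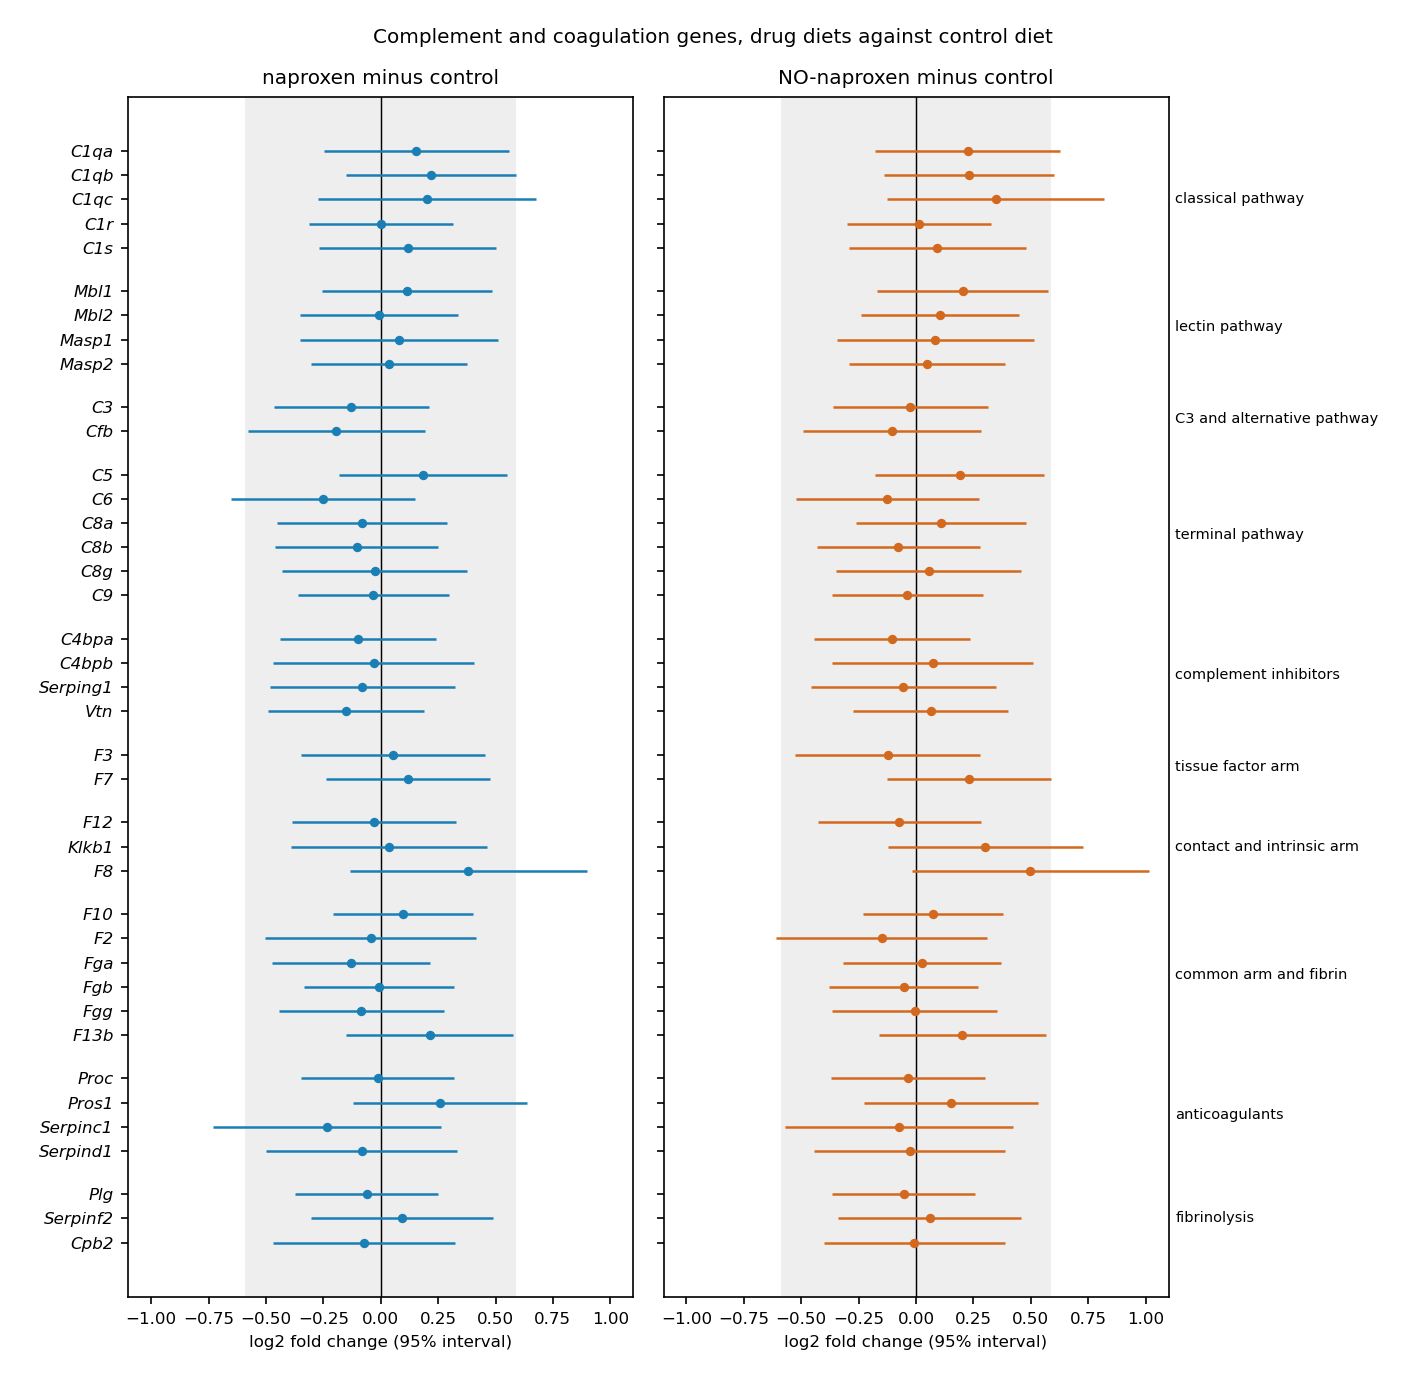
Log2 fold change (points) with 95% interval (lines) of 39 complement and coagulation genes, grouped by role, for naproxen minus control and NO-naproxen minus control (4 rats a diet). The grey band marks a 1.5-fold change either way (0.585 on the log2 scale). Most intervals lie inside the band, all cross 0, and those of F8 reach furthest above it, to 0.90 and 1.01.

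In the classical pathway, C1q binds antibody and its partners C1r and C1s are the proteases that it switches on. C1qa measured 9.55, 9.21, 9.14 and 9.05 in controls, 9.42, 9.75, 9.06 and 9.33 with naproxen and 9.15, 9.75, 9.57 and 9.38 with NO-naproxen (replicates 1 to 4). C1qb measured 8.68, 8.18, 8.44 and 8.10 in controls, 8.62, 8.57, 8.58 and 8.49 with naproxen and 8.23, 8.66, 8.69 and 8.74 with NO-naproxen. C1qc measured 9.09, 8.77, 8.31 and 8.27 in controls, 8.999, 8.85, 8.55 and 8.85 with naproxen and 8.47, 9.32, 8.86 and 9.19 with NO-naproxen. Control replicate 1 was the highest control for each chain, and NO-naproxen replicate 1 the lowest of its group, so the groups overlap for all 3 chains. The log2 fold changes with naproxen were 0.16 ± 0.19 for C1qa, 0.22 ± 0.17 for C1qb and 0.20 ± 0.22 for C1qc (SE). With NO-naproxen they were 0.22 ± 0.19, 0.23 ± 0.17 and 0.35 ± 0.22 in the same order. Without the 2 arrays of narrowest spread those of C1qc were -0.12 with naproxen and 0.026 with NO-naproxen. Markers of Kupffer cells and macrophages, of which 13 of 14 listed were measured and none was at 0, summed to 5769 to 8342 intensity units in controls, 6544 to 9097 with naproxen and 7071 to 10895 with NO-naproxen. Of the 13, 13 had a log2 fold change above 0 with naproxen and 11 with NO-naproxen, with medians of 0.23 and 0.36, and 1 and 3 were higher at an unadjusted p under 0.05. Over all probe sets 45.9% and 50.1% were above 0, and 3.16% and 5.49% were higher at that p. The part of macrophage RNA in the C1q values was not tested. C1r, at 12.53 ± 0.09 in controls, 12.53 ± 0.10 in naproxen rats and 12.54 ± 0.15 in NO-naproxen rats (SD, n = 4), had log2 fold changes of 0.0017 and 0.014. C1s had 0.12 and 0.093.

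The lectin pathway genes encode the sugar-binding proteins Mbl1 and Mbl2 and their proteases Masp1 and Masp2. All 4 were measured. Their log2 fold changes lay between -0.0073 and 0.11 with naproxen and between 0.049 and 0.20 with NO-naproxen, Mbl1 having the highest in both. C3 is the component at which all activation routes meet. It measured 13.23, 12.78, 13.16 and 12.998 in controls, 12.95, 12.98, 12.67 and 13.06 with naproxen and 13.01, 12.97, 13.13 and 12.95 with NO-naproxen. The spread of the controls covered all NO-naproxen rats and all naproxen rats but replicate 3. The 95% interval of the log2 fold change of C3 was -0.47 to 0.21 with naproxen and -0.36 to 0.31 with NO-naproxen, so neither reached 1.5-fold. Factor B, Cfb, the protease of the alternative pathway, had -0.19 ± 0.18 and -0.10 ± 0.18 (SE).

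The terminal components assemble the membrane pore. C6 measured 12.16, 11.81, 12.49 and 11.95 in controls, 11.96, 11.97, 11.47 and 12.02 with naproxen and 12.24, 11.86, 11.90 and 11.92 with NO-naproxen. Its lowest value was that of naproxen replicate 3, and the other 3 naproxen rats lay inside the range of the controls. The log2 fold change of C6 was -0.25 ± 0.19 with naproxen and -0.12 ± 0.19 with NO-naproxen (SE). With naproxen it was -0.12 also without naproxen replicate 3 and without control replicate 3. C8a, a chain of C8, measured 12.58, 12.41, 12.54 and 12.26 in controls, 12.71, 12.24, 12.12 and 12.39 with naproxen and 12.86, 12.52, 12.41 and 12.44 with NO-naproxen. The groups of C8a overlap, and its difference of 0.19 ± 0.17 between the drugs had the third smallest p of that comparison, 0.288 (limma, adjusted p = 1.00). C5, C8b, C8g and C9 had log2 fold changes from -0.11 to 0.18 with naproxen and from -0.077 to 0.19 with NO-naproxen, C5 being the highest in both.

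The inhibitors of complement keep the cascade off host cells. C4b-binding protein (C4bpa, C4bpb) and C1 inhibitor (Serping1) had log2 fold changes between -0.099 and -0.030 with naproxen and between -0.10 and 0.074 with NO-naproxen. Vitronectin, Vtn, which blocks the terminal complex and binds the matrix, measured 13.09, 12.62, 12.69 and 12.59 in controls, 12.70, 12.47, 12.55 and 12.66 with naproxen and 12.74, 12.95, 12.69 and 12.86 with NO-naproxen. Control replicate 1 was the highest of all 12 rats. Only 1 naproxen rat lay above the lowest NO-naproxen rat, and the difference between the drugs, 0.22 ± 0.16, had the smallest p of that comparison among the members, 0.196 (limma, adjusted p = 1.00).

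**Figure D2:**
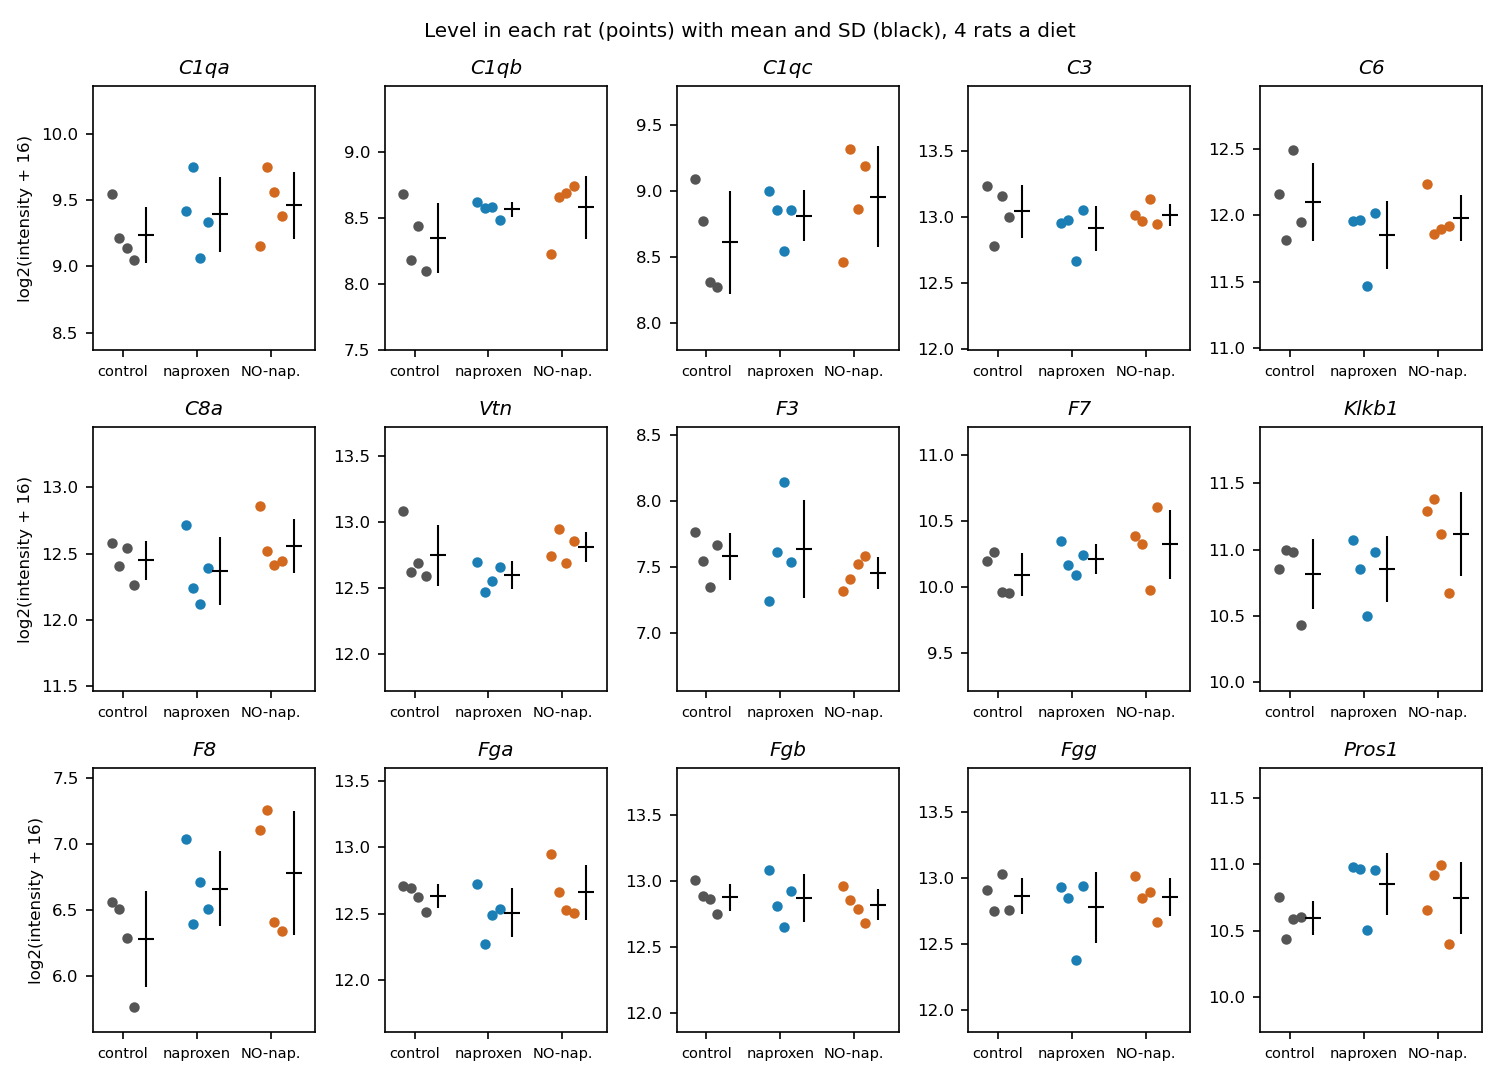
Level of 15 genes as log2(intensity + 16) in each of the 12 rats (points), with the mean and SD of each diet (black), for control, naproxen and NO-naproxen (NO-nap.). Each panel spans 2 log2 units, and the diets overlap in each of the 15 genes.

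Of the clotting factors, tissue factor F3 starts the extrinsic route on cells outside the blood and F7 is its plasma partner. F3 measured 7.76, 7.54, 7.35 and 7.67 in controls, 7.25, 7.62, 8.14 and 7.54 with naproxen and 7.31, 7.41, 7.52 and 7.59 with NO-naproxen. The naproxen rats held both the highest and the lowest value of F3. Its log2 fold change was 0.054 ± 0.19 with naproxen, -0.11 without naproxen replicate 3, and -0.12 ± 0.19 with NO-naproxen (SE). F7 measured 10.20, 10.26, 9.96 and 9.95 in controls, 10.35, 10.17, 10.09 and 10.25 with naproxen and 10.39, 10.33, 9.98 and 10.61 with NO-naproxen. NO-naproxen replicate 3 lay inside the controls and the other 3 above them, and the log2 fold change of F7 was 0.23 ± 0.17 (SE).

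Plasma kallikrein, Klkb1, acts with factor XII, F12, in contact activation. Klkb1 measured 10.85, 10.999, 10.98 and 10.43 in controls, 11.07, 10.85, 10.50 and 10.98 with naproxen and 11.29, 11.38, 11.12 and 10.67 with NO-naproxen. Of the NO-naproxen rats, replicates 1, 2 and 3 lay above all controls and replicate 4 inside their range. The log2 fold change of Klkb1 was 0.30 ± 0.20 with NO-naproxen and 0.036 ± 0.20 with naproxen, and the difference between the drugs was 0.27 ± 0.20 (SE, 95% interval -0.16 to 0.69). F12 had -0.030 and -0.072.

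Factor VIII, F8, the cofactor of factor IX that is lacking in haemophilia A, had the largest log2 fold changes of the set against control and also the largest SD between rats. It was the dimmest member, with a mean of 6.57 over the 12 rats, close to 6.44, the bound of the olfactory receptor range. Its mean was 6.28 in controls, below that bound, 6.66 with naproxen and 6.78 with NO-naproxen. F8 measured 6.56, 6.51, 6.28 and 5.77 in controls, 7.04, 6.39, 6.71 and 6.50 with naproxen and 7.11, 7.26, 6.41 and 6.34 with NO-naproxen. In each drug group 2 rats lay above all controls and 2 inside their range. The log2 fold change was 0.38 ± 0.24 with naproxen (SE; limma, adjusted p = 0.487) and 0.50 ± 0.24 with NO-naproxen (limma, adjusted p = 0.468). Without control replicate 4 these were 0.21 and 0.33. Both were also lower without control replicates 3 and 4, the 2 arrays of narrowest spread, than with all 12 arrays. F8 also followed the spread of the arrays over the 12 rats. Pearson's r was 0.87 (permutation p = 0.00022, 0.00858 after adjustment over 39 genes) and Spearman's rho 0.85 (permutation p = 0.00101, adjusted 0.0394). With the 2 arrays of most extreme spread left out r was 0.76, and it was 0.82 over deviations from the diet means. F8 was the only one of the 39 genes whose r passed that adjustment. The same correlation was not taken over other probe sets, so it is not shown to be particular to F8. With the spread as a covariate, the log2 fold change of F8 was -0.0009 ± 0.19 with naproxen and 0.083 ± 0.20 with NO-naproxen (SE). After quantile normalization, which gives every array the same spread, the log2 fold change of F8 was 0.53 with naproxen and 0.58 with NO-naproxen. The part of array spread in the F8 values was not tested further. Markers of endothelium, of which 4 of 10 listed were measured and none was at 0, summed to 953 to 1428 intensity units in controls, 1398 to 1636 with naproxen and 1196 to 1711 with NO-naproxen. Of the 4, all had a log2 fold change above 0 with each drug, with medians of 0.34 and 0.28. At an unadjusted p under 0.05, 2 and 0 of them were higher, against 3.16% and 5.49% of all probe sets. The part of endothelial RNA in the F8 values was not tested.

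**Figure D3:**
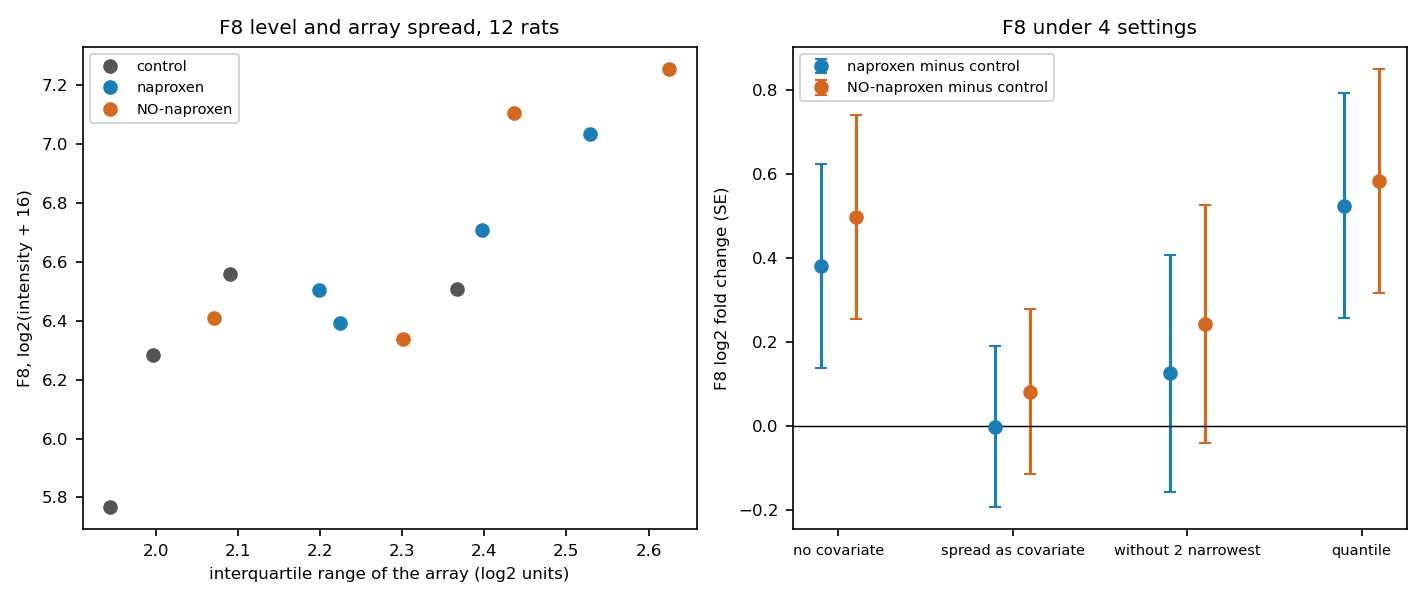
Left, the level of F8 as log2(intensity + 16) against the interquartile range of each array in log2 units, 1 point per rat coloured by diet. Right, the log2 fold change of F8 against control with its SE under 4 settings. Without the 2 arrays of narrowest spread it is lower with both drugs than in the fit without a covariate. It lies near 0 with the spread as a covariate (-0.0009 with naproxen and 0.083 with NO-naproxen). After quantile normalization it is 0.53 with naproxen and 0.58 with NO-naproxen.

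The common route runs through factor X, F10, and thrombin, made from F2, to fibrin. F10 varied least of the set between rats, with an SD of 0.094, and measured 11.62 ± 0.08 in controls, 11.72 ± 0.11 in naproxen rats and 11.70 ± 0.08 in NO-naproxen rats (SD, n = 4). F2 varied more, with 11.99 ± 0.27, 11.94 ± 0.38 and 11.84 ± 0.30. F13b, the carrier chain of the fibrin crosslinker, had log2 fold changes of 0.21 ± 0.17 and 0.20 ± 0.17 (SE).

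Fga, Fgb and Fgg encode the 3 chains of fibrinogen, whose promoters are shown above. Fga measured 12.71, 12.69, 12.63 and 12.51 in controls, 12.73, 12.27, 12.49 and 12.54 with naproxen and 12.95, 12.66, 12.53 and 12.50 with NO-naproxen. Fgb measured 13.01, 12.89, 12.86 and 12.75 in controls, 13.08, 12.82, 12.65 and 12.93 with naproxen and 12.96, 12.86, 12.79 and 12.69 with NO-naproxen. Fgg measured 12.91, 12.75, 13.03 and 12.76 in controls, 12.94, 12.85, 12.38 and 12.94 with naproxen and 13.02, 12.85, 12.90 and 12.67 with NO-naproxen. The diets overlap for all 3 chains, the lowest rat being naproxen replicate 2 for Fga and naproxen replicate 3 for Fgb and Fgg. The 95% intervals of the log2 fold change with naproxen were -0.47 to 0.21 for Fga, -0.33 to 0.32 for Fgb and -0.44 to 0.27 for Fgg. With NO-naproxen they were -0.32 to 0.37, -0.38 to 0.27 and -0.36 to 0.35, so a 1.5-fold change of any chain lay outside every one of these intervals. Over 15 measured genes of the hepatic acute phase and its signalling, the median log2 fold change was 0.010 with naproxen and 0.072 with NO-naproxen. Of the 15, 8 and 10 were above 0 (45.9% and 50.1% of all probe sets). The highest in both was Il1rn, with 0.83 ± 0.29 and 0.89 ± 0.29 (SE). The interleukin 6 receptor, Il6r, had 0.62 ± 0.29 and 0.67 ± 0.29. The lowest were Lcn2 with naproxen, at -0.30 ± 0.27, and A2m with NO-naproxen, at -0.41 ± 0.33 (SE), both in the olfactory receptor range. The acute phase genes Hp and Crp had -0.04 and -0.03 with naproxen and 0.008 and 0.02 with NO-naproxen. In that list 1 and 2 genes were higher at an unadjusted p under 0.05, none was lower, and none passed adjustment, against 3.16% and 5.49% of all probe sets higher at that p.

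The brakes on clotting are protein C (Proc), its cofactor protein S (Pros1), antithrombin (Serpinc1) and heparin cofactor II (Serpind1). Pros1 measured 10.75, 10.43, 10.58 and 10.60 in controls, 10.98, 10.97, 10.50 and 10.96 with naproxen and 10.66, 10.92, 10.997 and 10.40 with NO-naproxen. In 3 of 4 naproxen rats Pros1 lay above all controls, and replicate 3 lay inside them. Its log2 fold change with naproxen was 0.26 ± 0.18 (SE), with an adjusted p = 0.516 by limma. After median centring, which moved the median of all probe sets to 0.081, it was 0.38, with an unadjusted p under 0.05, as had 13.6% of all probe sets. Serpinc1 was most variable in controls, at 12.03 ± 0.52, against 11.79 ± 0.17 in naproxen rats and 11.95 ± 0.30 in NO-naproxen rats (SD, n = 4). Proc had log2 fold changes of -0.014 and -0.034, and Serpind1 of -0.084 and -0.028. Across roles, 5 of the 7 listed proteins that need vitamin K for their activation were measured (F2, F7, F10, Proc, Pros1), with medians of 0.098 and 0.075.

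Fibrinolysis and its control were represented by plasminogen (Plg), antiplasmin (Serpinf2) and the carboxypeptidase Cpb2, which protects fibrin. Plg measured 13.39 ± 0.08 in controls, 13.32 ± 0.10 in naproxen rats and 13.33 ± 0.14 in NO-naproxen rats (SD, n = 4). The log2 fold changes of the 3 genes lay between -0.072 and 0.093 with naproxen and between -0.054 and 0.060 with NO-naproxen.

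A second list held receptors, membrane inhibitors and further proteins of both systems, with 35 of 55 genes measured and 7 of them in the olfactory receptor range. None passed the adjusted threshold in limma. At an unadjusted p under 0.05, 1 was higher with naproxen and 3 with NO-naproxen, and none was lower (3.16% and 5.49% of all probe sets were higher). The complement receptor of Kupffer cells Vsig4 had log2 fold changes of 0.42 ± 0.19 and 0.44 ± 0.19, the thrombin receptor F2r of 0.35 ± 0.20 and 0.43 ± 0.20, and the membrane cofactor Cd46 of 0.20 ± 0.23 and 0.50 ± 0.23 (SE). F2r and Cd46 lay in the olfactory receptor range. C1qbp, which binds the globular heads of C1q, had 0.35 ± 0.19 with naproxen and 0.18 ± 0.19 with NO-naproxen.

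While diet means differed little, the genes varied together from rat to rat. Control replicate 1 lay above the mean of its diet in 34 of 39 genes and control replicate 4 below it in 35, while naproxen replicate 3 lay below it in 33, by a mean of -0.20 log2 units. Over the 741 pairs of members the median Pearson's r across the 12 rats was 0.31 (0.34 over deviations from the diet means), and r ranged from -0.82 to 0.92. All pairs share these arrays and their scaling. The same counts and correlations were not taken over other probe sets, so they are not shown to be particular to these genes.

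Subunits of one protein or complex were compared in 11 pairs, and 10 had an r above the median of all pairs, 0.31. The permutation p-values below test r against 0 and not against that median. They do not show that subunits vary together more than other members do. C1r and C1s had r = 0.89 (permutation p = 0.00023, adjusted over the 11 pairs 0.00253) and rho = 0.80 (permutation p = 0.0027, adjusted 0.0099). The C1q chains had r from 0.66 to 0.79 (adjusted permutation p from 0.00997 to 0.0389) and rho from 0.64 to 0.84 (adjusted permutation p from 0.00605 to 0.0467). For each pair, r was also taken without the 2 rats farthest from the median of its first-named gene. It was then 0.83 for C1r and C1s and 0.71 to 0.83 for C1q.

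For Fgb and Fgg r was 0.74 (permutation p = 0.00456, adjusted 0.0125) and rho 0.71 (permutation p = 0.0119, adjusted 0.0217), with r = 0.67 without the 2 farthest rats. Fga and Fgb had r = 0.62 (permutation p = 0.0299, adjusted 0.047) and rho = 0.86 (adjusted permutation p = 0.00605). For that pair r was 0.84 without its own 2 farthest rats. Fga and Fgg had r = 0.42 and rho = 0.56 (adjusted permutation p = 0.209 and 0.0773). C4bpa and C4bpb had r = 0.80 (permutation p = 0.0025, adjusted 0.00997), but rho was 0.57 (adjusted permutation p = 0.0773) and r was 0.38 without the 2 farthest rats, so the relation rests on those samples. Within C8, C8a and C8b had r = 0.56 and rho = 0.73 (adjusted permutation p = 0.0809 and 0.0204), whereas C8a and C8g had r = 0.038 and C8b and C8g r = 0.35. With the array spread regressed out, r was 0.89 for C1r and C1s, 0.80 for Fgb and Fgg and 0.85 for C4bpa and C4bpb. Over deviations from the diet means the same pairs had 0.91, 0.79 and 0.87.

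**Figure D4:**
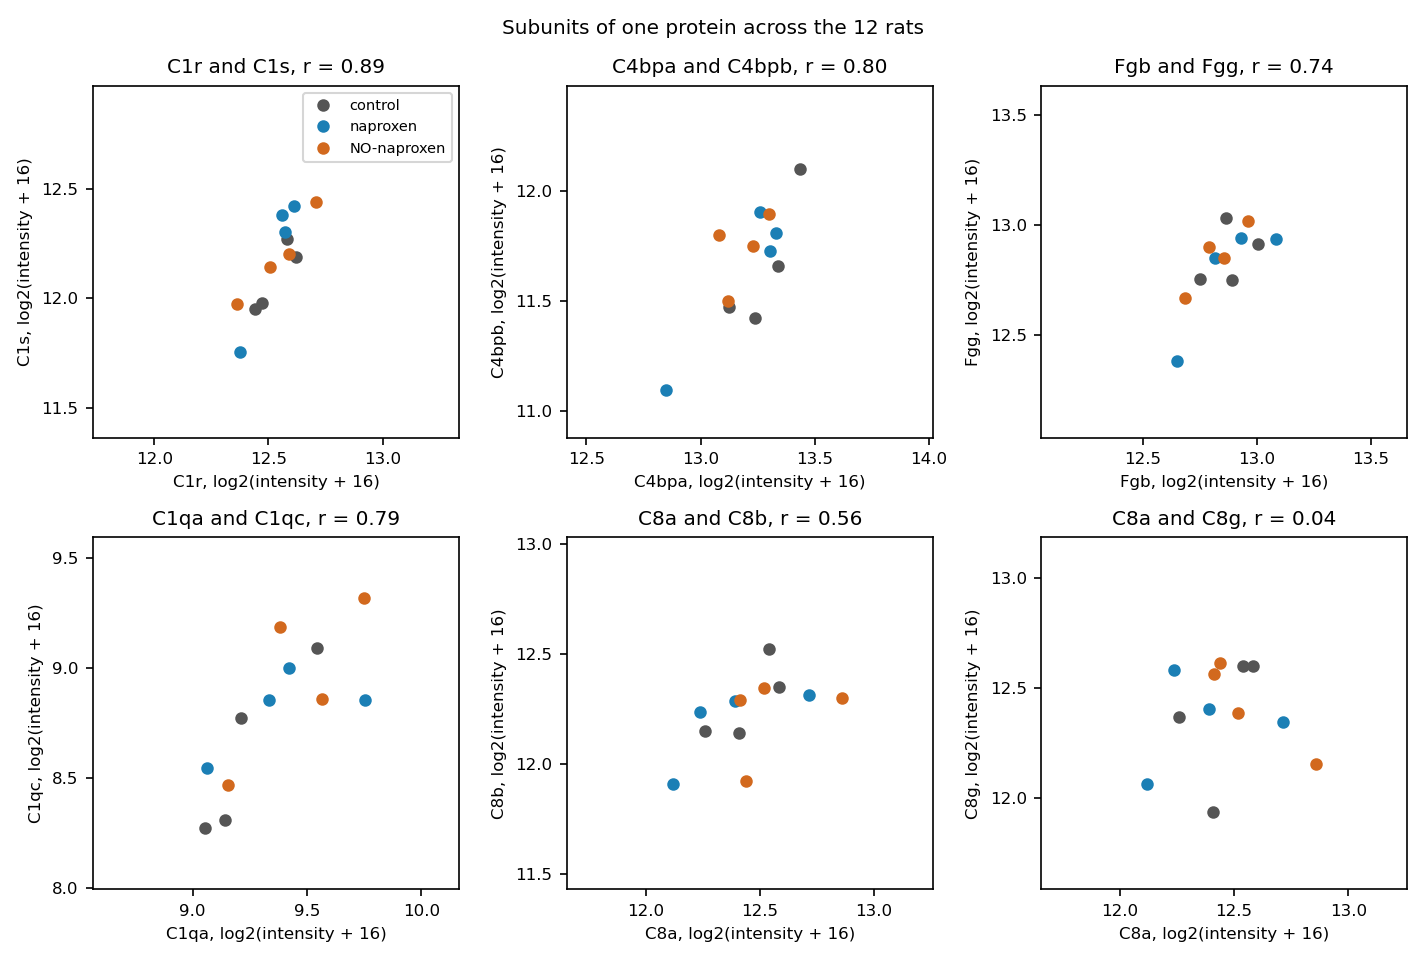
Levels of 2 subunits of one protein or complex against each other as log2(intensity + 16), 1 point per rat, coloured by diet, with Pearson's r over the 12 rats. C1r and C1s (0.89) vary together over the 12 rats, the r of C4bpa and C4bpb (0.80) falls to 0.38 without the 2 farthest rats, and C8a and C8g have 0.038.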

How the data were processed

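The authors deposited linear probe set intensities, for which the submitters' processing notes list the program Affymetrix Expression Console 1.1.1 and the genome build rn4. The probe summary and the normalization are not given in sources used here. To these intensities 16 was added before log2, which understates the change of dim probe sets. Probe sets were named from the platform annotation: 13327 had 1 symbol, 620 several and 5471 none. All 39 genes matched the RefSeq gene table by Entrez identifier.

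All 12 arrays entered 1 limma 3.58.1 fit in R 4.3.3 (lmFit, eBayes, 2-sided), without covariates and with a mean for each of the 3 diets. Standard errors and 95% intervals are from this fit, and p-values were adjusted by Benjamini-Hochberg over all 19418 probe sets. The fit was tested on simulated data. Background was the 95th percentile, 6.44, of the mean level of 970 olfactory and vomeronasal receptor probe sets. Correlations used 100000 permutations.

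The members and lists were chosen with earlier results of these data known. Genes given rat by rat were the 4 with the smallest p in each comparison, the fibrinogen and C1q chains, C3, F3 and F8. From the second list, the 3 genes with the smallest p in each comparison with control were named, and the other genes were given by role. Alternatives were constants of 1 and 64, quantile normalization, median centring, a fit on the compared groups alone, a robust trended spread, no dim probe sets (lowest 30%), array weights, the array spread as a covariate, averaging a gene's probe sets, the replicate number as a block, and leaving out arrays. Lists of markers of bile duct, platelet, red cell, lymphocyte, neutrophil and stellate cells were also set up. Of their measured genes, 1 of 2, 2 of 5, 1 of 1, 0 of 2, 3 of 4 and 8 of 8 had a log2 fold change above 0 with naproxen, and 1, 3, 1, 1, 3 and 7 with NO-naproxen. No label gives a batch.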

Additional observations from a re-analysis of the deposited data

Results flagged for a closer look

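Of 117 groups of 4 rats (39 genes, 3 diets), 9 held a rat far from the other 3, where chance flags about 1 in 20 groups (5.85 here). The gap to the nearest rat, divided by the group's range, exceeded Dixon's critical value for 4 samples in each. Naproxen replicate 3 was the low rat in 4 of them. It had C6 at 11.47 (the others 11.96 to 12.02), C4bpa at 12.85 (13.26 to 13.33), Fgg at 12.38 (12.85 to 12.94) and Pros1 at 10.50 (10.96 to 10.98). NO-naproxen replicate 1 was low for C1qb at 8.23 (8.66 to 8.74) and high for C6 at 12.24 (11.86 to 11.92). NO-naproxen replicate 3 was low for Mbl2 at 12.37 (12.51 to 12.52). NO-naproxen replicate 4 was low for C8b at 11.92 (12.29 to 12.34) and high for F10 at 11.81 (11.64 to 11.66).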

How the results depend on the processing

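No member passed the adjusted threshold in any comparison under any alternative run, each array left out included. With naproxen against control 1 member had an unadjusted p under 0.05 after median centring (Pros1, against 13.6% of all probe sets), 0 to 1 with single arrays left out, and 0 under the criterion of the series design. With NO-naproxen against control, F8 was the 1 such member after quantile normalization, median centring, array weights and with the replicate number as a block, against 11%, 12.6%, 30.6% and 11.6% of all probe sets, and 0 to 2 members reached it with single arrays left out. The median log2 fold change with naproxen was 0.10 after median centring and -0.083 to 0.047 with single arrays left out. The count of intervals inside 1.5-fold, examined after seeing the data, was 19 for naproxen without the 2 arrays of narrowest spread, and with single arrays left out 25 to 32 for naproxen, 26 to 33 for NO-naproxen and 28 to 35 between the drugs. Of 15 genes given rat by rat, 8, 6 and 8 changed the sign of the log2 fold change under some alternative in the 3 comparisons (22, 20 and 17 of 360 values each). The replicate numbers share no label beyond the number: the 12 same-number correlations of deviations ran from -0.38 to 0.48, 4 were over 0.1, and 0 of 12 arrays correlated best with their own number in both other diets. Signal near background limits F8.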
